A study of Mus musculus with 4 samples.

Results

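RNA sequencing gave the levels of 32 sterol and fatty acid synthesis genes in MK2 and MK1, a pair of mouse keratinocyte lines grown as 2 biological replicate cultures each. The genes were taken by name from a deposited table of 23420 genes, in which all 32 were found, and all 32 had enough counts to be tested. They formed a sterol branch of 21 genes and a fatty acid branch of 11. The labels describe both lines as mouse keratinocytes and report neither treatment nor genotype, strain, age or passage for either. With 1 line on each side, p-values rest on the variation among cultures and say nothing of how keratinocyte lines vary in general. Every log2 fold change is MK2 minus MK1.

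Cells make cholesterol and fatty acids from acetyl-CoA along separate routes that share a transcriptional control. SREBP2, the product of Srebf2, and SREBP1, the product of Srebf1, are transcription factors held in the membrane of the endoplasmic reticulum. When sterols run low they are carried to the Golgi, cut free and enter the nucleus, where SREBP2 mainly drives sterol genes and SREBP1 mainly drives fatty acid genes. Epidermal keratinocytes are active lipid makers, because cholesterol, fatty acids and ceramides form the water barrier of the skin.

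Libraries held 25237391 to 30261111 counts. Levels are CPM, with the depth of each library divided out, and genes are ranked against each other by TPM, which also divides by gene length. The basal keratins Krt5 and Krt14 stood between 7023 and 9179 CPM in every library, and Trp63, which encodes the epidermal factor p63, between 214 and 265 CPM. Of the 7 basal keratinocyte markers, Itga6 was higher in MK2 (log2 change 0.83, adjusted p = 7.39e-04), Col17a1 lower (-1.06, adjusted p = 5.98e-04), and the other 5 did not pass. Krt15 stood apart between cultures, at 27.9 and 0.247 CPM in MK2 and 4.77 and 4.47 CPM in MK1. Summed over 7 sebocyte markers, levels were 0.600 to 0.795 CPM in MK2 and 0.296 to 0.410 CPM in MK1, with 4 of the 7 at 0 in all libraries, and 4 adipocyte markers summed to at most 0.0397 CPM in any library. Of 8 fibroblast markers, 1 (Pdgfra) was lower in MK2, and their sums were 1.03 and 1.41 CPM in MK2 and 3.88 and 3.35 CPM in MK1, with Pdgfrb, Dcn and Lum at 0. Of 6 melanocyte markers, 3 could be tested and 1 of these was lower in MK2 (Mitf). The sums of the 6 were 3.54 and 3.99 CPM in MK2 and 6.05 and 5.36 CPM in MK1. Among all genes tested, 28.6% were lower in MK2 and 25.9% higher. Leukocyte markers differed: the sum of 8 was 0.238 and 0.0705 CPM in MK2 and 28.2 and 27.7 CPM in MK1, all 5 that could be tested were lower in MK2, and Tyrobp was at 0 throughout. Of the MK1 sums, Cd74 gave 17.9 and 17.7 CPM, while Cd3e and Lyz2 had at most 4 counts in any library. Whether any of these transcripts came from other cells or from the lines themselves was not tested, nor was their part in the results below.

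Promoters of sterol genes are shown first. SREBPs bind sterol regulatory elements beside the CCAAT box, bound by NF-Y, and the GC box, bound by Sp1. RefSeq (GRCm38.p6) held a window from 250 bases before to 50 bases after the start for 25 of the 32 genes. The 200 bases before the start are printed for Hmgcs1, Idi1 and Lss, which were lower in MK2, and for Ebp and Dhcr7, which were not, with matches to a sterol regulatory element (TCACNCCAC), the CCAAT box (CCAAT) and the GC box (GGGCGG) on either strand in capitals. On the opposite strand the CCAAT box reads ATTGG and the GC box CCGCCC.
Hmgcs1, chr13:119690151-119690350, plus strand: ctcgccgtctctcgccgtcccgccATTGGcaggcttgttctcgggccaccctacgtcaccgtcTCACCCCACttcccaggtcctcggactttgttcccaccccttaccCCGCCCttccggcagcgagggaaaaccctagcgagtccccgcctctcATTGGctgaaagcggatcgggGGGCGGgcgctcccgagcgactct
Idi1, chr13:8885406-8885605, plus strand: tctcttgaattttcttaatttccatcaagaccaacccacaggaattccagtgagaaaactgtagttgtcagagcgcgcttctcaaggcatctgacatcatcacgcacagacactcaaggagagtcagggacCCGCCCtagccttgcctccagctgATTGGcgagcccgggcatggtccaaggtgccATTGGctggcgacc
Lss, chr10:76531405-76531604, plus strand: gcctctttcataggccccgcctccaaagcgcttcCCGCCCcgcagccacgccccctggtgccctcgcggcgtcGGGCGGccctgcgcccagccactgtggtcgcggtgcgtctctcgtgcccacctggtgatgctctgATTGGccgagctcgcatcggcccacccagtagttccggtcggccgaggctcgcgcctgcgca
Ebp, chrX:8193513-8193712, minus strand: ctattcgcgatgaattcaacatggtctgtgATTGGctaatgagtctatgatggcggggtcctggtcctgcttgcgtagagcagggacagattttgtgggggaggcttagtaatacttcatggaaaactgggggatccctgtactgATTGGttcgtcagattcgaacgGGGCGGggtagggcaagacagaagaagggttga
Dhcr7, chr7:143822967-143823166, plus strand: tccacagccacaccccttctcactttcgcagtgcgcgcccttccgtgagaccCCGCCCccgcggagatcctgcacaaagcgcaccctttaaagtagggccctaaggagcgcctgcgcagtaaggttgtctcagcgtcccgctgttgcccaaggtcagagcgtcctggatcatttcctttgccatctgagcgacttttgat
In the printed stretches Hmgcs1 held 1 sterol regulatory element, 2 CCAAT boxes and 2 GC boxes, Idi1 held 2 CCAAT boxes and 1 GC box, and Lss 1 CCAAT box and 2 GC boxes. Ebp held 2 CCAAT boxes and 1 GC box, the same numbers as Idi1, and the Dhcr7 start nearest to the annotated gene held 1 GC box and no CCAAT box. Another Dhcr7 window held the CCAAT box, and the window of Acat2, which was lower in MK2, held none.

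The CCAAT box occurred in a window of 16 of the 17 sterol genes with one and 5 of the 8 fatty acid genes, against 41.1% of 27025 mouse genes. Taking for each gene only the window nearest its annotated start, the counts were 14 of 17 and 4 of 8, against 37.4% of 32851 windows. The GC box occurred in 16 of 17 sterol genes and 4 of 8 fatty acid genes, against 38.2% of genes. The element TCACNCCAC was found in 1 of the 17 sterol genes, Hmgcs1, in none of the 8 fatty acid genes, and in 1.44% of all genes. Fdps, Fdft1, Sqle, Stard4, Scd1, Scd2 and Fads1 had no window and were not searched. Such matches describe letters in the window and do not show binding.

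Sterol genes were lower in MK2. Of the 21 tested, 16 fell, none rose and 5 did not pass the test (edgeR's quasi-likelihood test, Benjamini-Hochberg adjusted p under 0.05 over all 12479 genes tested). Among all genes tested, 28.6% were lower and 25.9% higher in MK2, 54.6% in either direction. The median log2 change of the branch was -0.87, against -0.0098 over all genes, and the quartiles of the branch were -1.08 and -0.65. Levels in the MK2 cultures did not overlap those in the MK1 cultures and were lower for 18 of the 21, against 40.9% of all genes. The branch median was -0.75 with MK1 replicate 2 left out and -1.10 with MK2 replicate 2 left out. Leaving out a library takes the replicate from its line, so the adjusted p then rests on the spread of the other line. A call lost that way need not mean a changed level. In bulk RNA, fewer cells of a kind and less RNA per cell cannot be told apart.

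**Figure D1:**
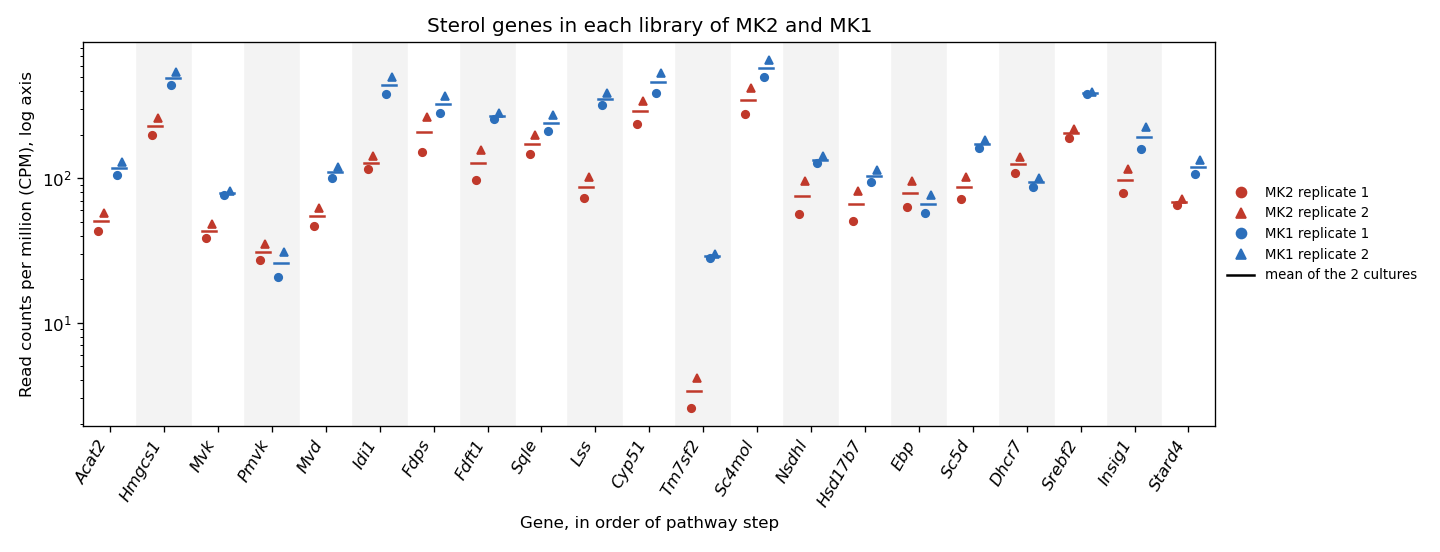
CPM on a log axis for the 21 sterol genes, in pathway order from Acat2 to Dhcr7 with the regulators at the right; circles and triangles are replicates 1 and 2, bars are means, and MK2 (red) stands left of MK1 (blue). Red points lie below blue for 18 genes, Tm7sf2 shows the widest gap, and Pmvk, Ebp and Dhcr7 have the higher mean in MK2.

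The first enzymes lead from acetyl-CoA through mevalonate to farnesyl diphosphate, and 5 of these 7 genes fell, beside 28.6% of all genes tested. Hmgcs1, which makes HMG-CoA (chromosome 13, 119690462 to 119708077, mm10), stood at 198 and 262 CPM in the MK2 cultures and at 445 and 549.6 CPM in the MK1 cultures. Both MK2 values lay below both MK1 values, and the log2 change was -1.11 ± 0.17 (SE; adjusted p = 0.00199). Idi1, the isomerase that makes dimethylallyl diphosphate (chromosome 13, 8885606 to 8892396), stood at 115 and 142 CPM in MK2 and at 382 and 504 CPM in MK1. It was the mevalonate gene with the widest gap, 3.44-fold lower in MK2 (log2 change -1.78 ± 0.17, adjusted p = 3.26e-04), in a stretch of chromosome where the 50 nearest tested genes had a median of -0.38.

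The other mevalonate genes differed in how far they moved. Acat2, the acetoacetyl-CoA thiolase of the cytosol, Mvk, mevalonate kinase, and Mvd, the decarboxylase, fell by 1.22, 0.87 and 1.02 on the log2 scale. Pmvk, the phosphomevalonate kinase between Mvk and Mvd in the route, had 27.1 and 35.0 CPM in MK2 and 20.9 and 30.7 CPM in MK1. The cultures of the 2 lines overlapped for Pmvk, which did not pass (log2 change 0.27 ± 0.21, adjusted p = 0.313). Fdps, the farnesyl diphosphate synthase, had 153 and 265 CPM in MK2 and 283 and 375 CPM in MK1. Both MK2 values of Fdps were below both MK1 values, but the change of -0.65 ± 0.26 did not pass (adjusted p = 0.0715), and without MK2 replicate 2 it did (-1.10, adjusted p = 0.00121). It was -0.30 without MK2 replicate 1 (adjusted p = 0.162) and -0.44 without MK1 replicate 2 (adjusted p = 0.338). Fdps is also the member with the most shared sequence, because 86.4% of the 50-base words of its transcript occur in transcripts of other annotated genes. Its counts may be uncertain for that reason. The next highest shares in the branch were 45.9% for Acat2, all of them found in Acat3, 30.7% for Fdft1 and 30.5% for Idi1. For Fdft1, 19.9% of the words were found in Ctsb, whose exons overlap its own. Words shared by overlapping genes were not separated from words that occur elsewhere in the genome. The authors' counting command set no option to include reads with several alignments.

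The next 3 enzymes join farnesyl units into squalene and fold it into lanosterol, and 2 of them fell, beside 28.6% of all genes tested. Lss, the cyclase that closes the sterol rings (chromosome 10, 76531627 to 76553934), stood at 72.6 and 102 CPM in MK2 and at 324 and 388 CPM in MK1. It was 4.07-fold lower in MK2 (log2 change -2.03 ± 0.19, adjusted p = 2.69e-04), and its 50 nearest tested genes had a median of -0.46. Fdft1, squalene synthase, had 98.1 and 156 CPM in MK2 and 257 and 282 CPM in MK1, a log2 change of -1.08 ± 0.21 (adjusted p = 0.00523). Sqle, the epoxidase between these steps, had 148 and 198 CPM in MK2 and 212 and 273 CPM in MK1. Its cultures did not overlap, yet its change of -0.48 ± 0.18 did not pass (adjusted p = 0.0583), while it passed without MK2 replicate 2 (-0.71, adjusted p = 0.00725). The change was -0.28 without MK2 replicate 1 (adjusted p = 0.173) and -0.29 without MK1 replicate 2 (adjusted p = 0.330). Exons of Fdft1 overlap those of Ctsb on the opposite strand over 774 bases, and no strand option was set in the counting.

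Of the 8 genes that convert lanosterol to cholesterol, 6 fell, beside 28.6% of all genes tested. Tm7sf2, a sterol reductase that removes the C14 double bond (chromosome 19, 6062821 to 6067850), stood at 2.54 and 4.16 CPM in MK2 and at 27.9 and 30.1 CPM in MK1. It had the largest sterol change, 8.58-fold lower in MK2 (log2 change -3.10 ± 0.24, adjusted p = 1.35e-04), while its 50 nearest tested genes had a median of 0.12. Sc4mol, the methyl oxidase also called Msmo1, had the highest TPM of the branch in both lines, with means of 385 TPM in MK2 and 667 TPM in MK1. In CPM, Sc4mol stood at 281 and 422 in MK2 and at 503 and 663 in MK1, a log2 change of -0.73 ± 0.22 (adjusted p = 0.0268).

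The Sc4mol call was lost without MK1 replicate 1 (log2 change -0.92) or MK1 replicate 2 (-0.52). So was that of Nsdhl, the decarboxylating dehydrogenase (-0.82 ± 0.23, adjusted p = 0.0219), with log2 changes of -0.90 and -0.75. Without MK1 replicate 1 the changes of Sc4mol and Nsdhl were larger in size than with all libraries. Hsd17b7, a keto-reductase (-0.65 ± 0.22, adjusted p = 0.0419), lost its call without MK1 replicate 1, MK1 replicate 2 or MK2 replicate 1 (adjusted p = 0.0954, 0.213 and 0.0794). Cyp51, the demethylase (-0.67 ± 0.21, adjusted p = 0.0345), lost it without MK1 replicate 2 or MK2 replicate 1 (adjusted p = 0.224 and 0.0807). Values moved by over 1.5 times as well: without MK2 replicate 1 the log2 changes of Sc4mol, Nsdhl, Hsd17b7 and Cyp51 were -0.46, -0.49, -0.35 and -0.42. Without MK2 replicate 2, those of Nsdhl and Hsd17b7 were -1.25 and -1.03, and without MK1 replicate 2 that of Cyp51 was -0.42. Sc5d, the desaturase of the B ring, fell by 0.99 and was called with any 1 library left out.

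Ebp and Dhcr7, which act late in the route, did not pass the test. Dhcr7, which makes cholesterol from 7-dehydrocholesterol (chromosome 7, 143823167 to 143848410), had 109.6 and 141 CPM in MK2 and 87.4 and 101 CPM in MK1. Both MK2 values were above both MK1 values, but the log2 change of 0.41 ± 0.15 did not pass (adjusted p = 0.0534). Without MK2 replicate 1 it passed as higher (0.59, adjusted p = 0.00652), and without MK2 replicate 2 it was 0.22 (adjusted p = 0.194). Ebp, the isomerase that shifts the ring double bond, had 63.5 and 96.0 CPM in MK2 and 57.4 and 76.2 CPM in MK1, so that its cultures overlapped (0.26 ± 0.22, adjusted p = 0.352). Its direction was not fixed: the log2 change was -0.069 without MK2 replicate 2 and 0.53 without MK2 replicate 1 (adjusted p = 0.0315). By TPM, Dhcr7 and Ebp were ranks 14 and 11 of the 32 genes in MK2 and ranks 24 and 23 in MK1.

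**Figure D2:**
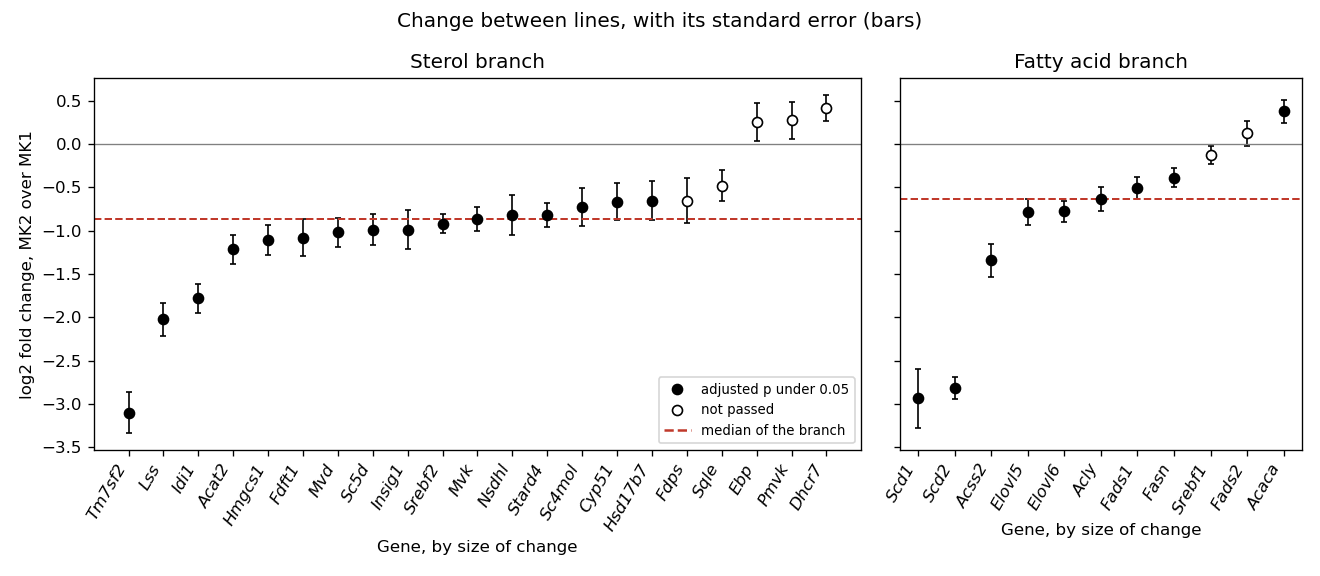
Log2 fold change of MK2 over MK1 with its standard error for each gene of the sterol branch (left panel) and the fatty acid branch (right panel), ordered by size; filled points have an adjusted p under 0.05, and dashed lines are the branch medians, -0.87 and -0.63. Tm7sf2, Lss and Idi1 and the pair Scd1 and Scd2 stand apart at the low end, and 5 of 32 genes lie above 0.

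The regulators of the sterol branch and its carrier protein fell too. Srebf2 (chromosome 15, 82147269 to 82204960) had 191 and 220.2 CPM in MK2 and 384 and 395 CPM in MK1, a log2 change of -0.92 ± 0.11 (adjusted p = 8.33e-04). The cultures of a line lay close together for Srebf2 and the lines did not overlap. Insig1, which retains the SREBPs in the endoplasmic reticulum when sterols are plentiful and is itself an SREBP target, had 78.8 and 117 CPM in MK2 and 160.4 and 228 CPM in MK1. Its change of -0.99 ± 0.23 passed (adjusted p = 0.0104), but not without MK1 replicate 2 (-0.72, adjusted p = 0.0790). Stard4, which carries sterols between membranes, fell by 0.81 ± 0.14 (adjusted p = 0.00302).

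Of the 11 fatty acid genes, 8 fell, 1 rose and 2 did not pass, where 28.6% of all genes tested fell and 25.9% rose. In 9 of the 11 the MK2 cultures lay below the MK1 cultures without overlap, against 40.9% of all genes. The median log2 change was -0.63, and -0.51 without Scd1 and Scd2, against the sterol median of -0.87. With MK1 replicate 2 left out the median of the 11 genes was -0.56. The shares lower in MK2 were 72.7% of fatty acid genes and 76.2% of sterol genes, against 28.6% of all genes tested, and the difference between the branches was not tested. Summed over the branch without regard to gene length, levels were 2185 and 2522 CPM in MK2 and 5937 and 6367 CPM in MK1 for fatty acid genes. For sterol genes the sums were 2151 and 3024 CPM in MK2 and 4304 and 5335 CPM in MK1.

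The stearoyl-CoA desaturases, which turn saturated into monounsaturated fatty acids, carried most of the fatty acid difference. Scd2 (chromosome 19, 44293676 to 44306862) stood at 489 and 571 CPM in MK2 and at 3591 and 3868 CPM in MK1. It was 7.03-fold lower in MK2 (log2 change -2.81 ± 0.13, adjusted p = 1.94e-05), with neighbours at a median of -0.082. Scd2 gave 22.4% and 22.6% of the counts of the branch in MK2 and 60.5% and 60.8% in MK1, shares that also reflect gene length. By TPM it was rank 4 of the 32 genes in MK2, at 194 TPM, and rank 1 in MK1, at 1431 TPM. Without Scd2 the branch sums were 1695 and 1951 CPM in MK2 and 2345 and 2499 CPM in MK1.

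Scd1, its neighbour on the same chromosome (44394450 to 44407709), had 8.34 and 18.4 CPM in MK2 and 89.9 and 116 CPM in MK1. It was 7.65-fold lower in MK2 (log2 change -2.94 ± 0.34, adjusted p = 6.75e-04), with the MK2 cultures further apart than those of any other member (1.13 on the log2 scale). The transcripts of Scd1 and Scd2 shared few 50-base words with other genes (4.66% and 4.01%), and both were called with any 1 library left out. The log2 change of Scd1 was -3.62 without MK2 replicate 2. In tests for a change beyond 2-fold (edgeR's glmTreat), 5 members were lower, namely Scd1, Scd2, Tm7sf2, Lss and Idi1, and none was higher. Among all genes tested, 10.1% were lower and 3.25% higher by that test.

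**Figure D3:**
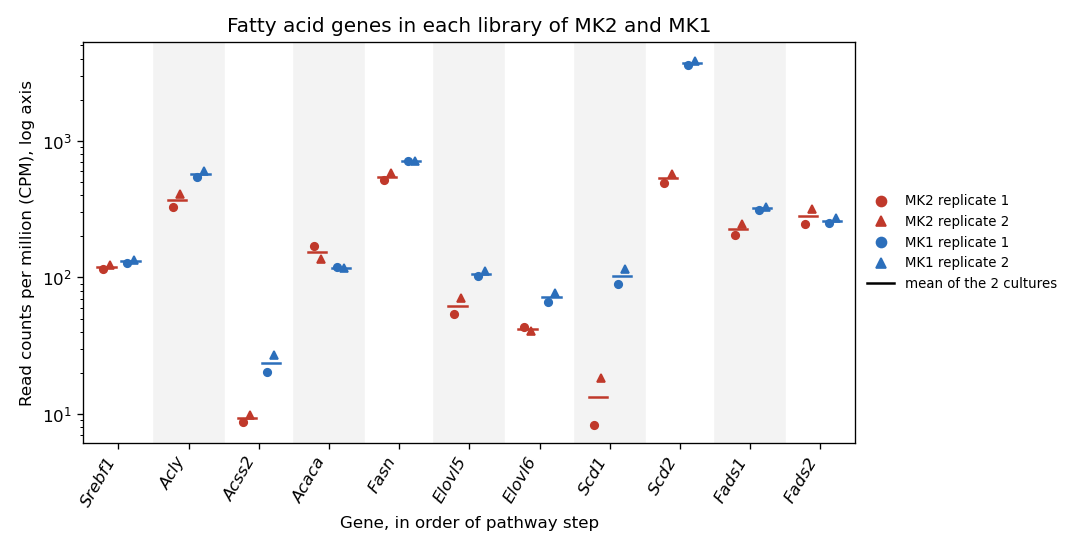
CPM on a log axis for the 11 fatty acid genes, drawn as for the sterol genes with MK2 (red) left of MK1 (blue). Scd2 and Scd1 show the widest gaps between the lines, and Acaca is the only gene for which both MK2 cultures lie above both MK1 cultures.

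The enzymes that supply and condense acetyl-CoA moved less. Acly, the citrate lyase, had 326 and 408 CPM in MK2 and 541 and 598 CPM in MK1 (-0.63 ± 0.14, adjusted p = 0.00800), a call lost without MK1 replicate 2 (adjusted p = 0.0712). Acss2, the acetyl-CoA synthetase that uses acetate, had 8.70 and 9.91 CPM in MK2 and 20.2 and 27.2 CPM in MK1. Its change of -1.34 ± 0.19 (adjusted p = 0.00139) stood beside a median of 0.30 over its 50 nearest tested genes. Fasn, the fatty acid synthase, had 518 and 578 CPM in MK2 and 717 and 718 CPM in MK1 (-0.39 ± 0.11, adjusted p = 0.0201). That small drop was not called without MK1 replicate 1 or 2 (adjusted p = 0.119 and 0.113).

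Acaca, the acetyl-CoA carboxylase and the committed step, was the member that rose. It had 169.8 and 137 CPM in MK2 and 119 and 117 CPM in MK1 (0.38 ± 0.13, adjusted p = 0.0440). The call was lost without MK1 replicate 1, MK1 replicate 2 or MK2 replicate 1 (adjusted p = 0.179, 0.188 and 0.148), and the value without MK2 replicate 1 was 0.22. It was also lost with libraries scaled by size alone (adjusted p = 0.0527) or by the upper quartile (adjusted p = 0.0714). Of the 50-base words of Acaca, 52.6% occur in the annotated transcript of Gm5182.

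Srebf1 had 115 and 124 CPM in MK2 and 128 and 134 CPM in MK1. The cultures did not overlap, but the log2 change of -0.13 ± 0.10 did not pass (adjusted p = 0.329), where Srebf2 had -0.92. The difference between these changes was not tested. The elongases Elovl5, which acts on polyunsaturated chains, and Elovl6, which acts on saturated and monounsaturated chains, fell by 0.78 each (adjusted p = 0.00462 and 0.00216). Fads1, the delta-5 desaturase, had 205 and 247 CPM in MK2 and 313 and 331 CPM in MK1 (-0.51 ± 0.12, adjusted p = 0.0125), a call lost without MK1 replicate 1 or 2 (adjusted p = 0.0693 and 0.0909). Fads2, the delta-6 desaturase from the same gene cluster, had 247 and 318 CPM in MK2 and 248 and 271 CPM in MK1, so that the lines overlapped (0.12 ± 0.14, adjusted p = 0.495). Its value was -0.069 without MK2 replicate 2.

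Sterol genes also differed between the cultures of a line, all in the same direction. In both lines replicate 2 had the higher level of all 21 sterol genes, against 22.8% of all genes tested in both lines, 49.4% in MK2 and 6243 of 12479 genes in MK1. The replicate 2 minus replicate 1 difference had a median of 0.49 in MK2, with a range of 0.14 to 0.80, and of 0.30 in MK1, with a range of 0.044 to 0.56, where the median of all genes was 0.00 in both. For the fatty acid genes 9 of 11 were higher in replicate 2 of both lines, with medians of 0.22 in MK2 and 0.11 in MK1. In MK2 the exceptions were Acaca and Elovl6, at -0.31 and -0.11. Differences of 0.1 or more in both lines were seen in 19 sterol genes and 6 fatty acid genes, against 9.11% of all genes.

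The culture difference was smallest for Srebf2 in MK1, at 0.044, and for Stard4 in MK2, at 0.14, and it reached 0.80 for Fdps in MK2. Nothing in the labels ties replicate 2 of MK2 to replicate 2 of MK1, so the shared direction is a description of 4 cultures. Between the nearest libraries, MK2 replicate 2 and MK1 replicate 1, 18 of 21 sterol genes were lower in MK2 with a median of -0.57. Between the farthest, MK2 replicate 1 and MK1 replicate 2, 20 were lower with a median of -1.29. Over all genes the medians of these library pairs were -0.011 and -0.0089.

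**Figure D4:**
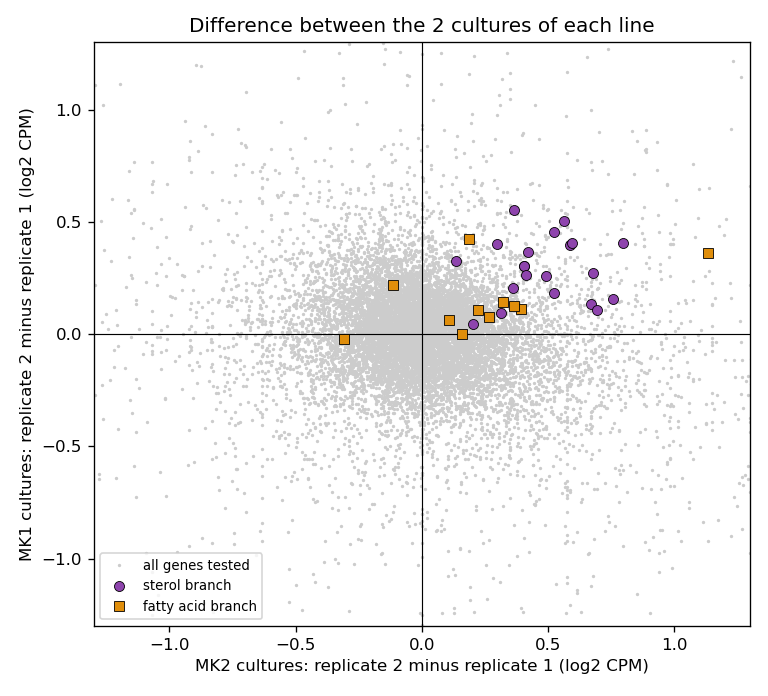
Replicate 2 minus replicate 1 in log2 CPM for MK2 (horizontal axis) and MK1 (vertical axis), with sterol genes as purple circles, fatty acid genes as orange squares and all genes tested in grey; 301 genes lie outside the plotted range of 1.3. All 21 purple circles lie in the upper right part, whereas the grey cloud is centred on 0.

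Calls among 60 other genes of lipid metabolism, in 5 lists, went both ways. Of 9 genes for SREBP processing and sterol sensing, 4 fell and 2 rose, with a list median of -0.34, where 28.6% of all genes tested fell and 25.9% rose. Insig2, a relative of Insig1, had 30.0 and 29.6 CPM in MK2 and 51.1 and 46.1 CPM in MK1 (-0.71, adjusted p = 0.00207). Mbtps1, the first of the SREBP proteases, and Rnf139, a ubiquitin ligase, had log2 changes of -0.53 and -0.46. Both calls were lost without MK1 replicate 1 (adjusted p = 0.0892 and 0.0646). Leaving out MK1 replicate 2 ended the call of Rnf139 as well (adjusted p = 0.109).

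Of 11 tested genes for sterol export, storage and trafficking, 5 fell and 2 rose, beside 28.6% and 25.9% of all genes. The cholesterol exporters, targets of the sterol-activated receptor LXR, were among those lower. Abcg1 had 5.72 and 5.11 CPM in MK2 and 24.4 and 21.9 CPM in MK1 (-2.10 ± 0.16, adjusted p = 1.31e-04). Abca1 had 0.0795 and 0.176 CPM in MK2, 7 counts in all, and 1.74 and 1.53 CPM in MK1. Npc2, which lifts cholesterol out of lysosomes, had 129 and 183 CPM in MK2 and 371 and 343 CPM in MK1 (-1.20, adjusted p = 0.00155). Lipa, the lysosomal lipase, had a log2 change of -0.95 (adjusted p = 0.0370), a call lost without MK1 replicate 1, MK1 replicate 2 or MK2 replicate 1 (adjusted p = 0.219, 0.0702 and 0.0589). Its value was -0.56 without MK2 replicate 1 and -1.50 without MK2 replicate 2.

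Side branches that draw on isoprenoids went both ways, with 3 of 7 tested genes higher and 3 lower, beside 25.9% and 28.6% of all genes. Pdss1, which makes the side chain of coenzyme Q, had 20.6 and 16.8 CPM in MK2 and 6.22 and 7.90 CPM in MK1 (2.65-fold higher, adjusted p = 0.00124). Its partner Pdss2 was also higher (0.74, adjusted p = 0.0102), a call lost without MK1 replicate 1 (adjusted p = 0.0874). Coq2, the next enzyme of coenzyme Q synthesis, had a log2 change of -0.55, lost without MK1 replicate 2 (adjusted p = 0.0556). Mmab, the cobalamin enzyme whose gene lies head to head with Mvk, had a log2 change of -0.90 ± 0.11 (adjusted p = 9.38e-04), close to the -0.87 ± 0.13 of Mvk.

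Of 9 other tested genes of fatty acid elongation and desaturation, 2 fell and 1 rose, with a list median of 0.0060, shares below the 28.6% and 25.9% of all genes. Elovl7, an elongase of saturated chains, had 11.6 and 14.1 CPM in MK2 and 40.8 and 39.5 CPM in MK1 (-1.64 ± 0.14, adjusted p = 2.18e-04). Fads3, from the Fads1 and Fads2 cluster, had a log2 change of -0.80, lost without MK1 replicate 1 or 2 (adjusted p = 0.0852 and 0.0716), and -0.52 without MK2 replicate 1. Acacb, the mitochondrial relative of Acaca, had 0.954 and 1.41 CPM in MK2 and 0.164 and 0.0372 CPM in MK1. Its call (adjusted p = 0.00252) rested on 6 counts in MK1, so the size of its change is not given.

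Of 17 tested genes for lipogenic supply and glycerolipids, 5 fell and 2 rose, with a list median of 0.052. The share that fell, 29.4%, was near the 28.6% of all genes, and the share that rose, 11.8%, was below the 25.9%. Aacs, which makes acetoacetyl-CoA for lipid synthesis, had 105 and 145 CPM in MK2 and 242 and 268 CPM in MK1 (-1.03 ± 0.17, adjusted p = 0.00244). Lpin1, a phosphatidate phosphatase, and Dgat2, which completes triglycerides, had log2 changes of -1.59 and -1.04. Fabp5, the epidermal fatty acid binding protein, was higher, with 183 and 216 CPM in MK2 and 62.0 and 98.2 CPM in MK1 (1.32 ± 0.22, adjusted p = 0.00264).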

How the data were processed

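Total RNA from 4 cultures was sequenced after TruSeq library construction, per the labels' protocols. The deposited file held raw read counts per gene, summed over exons by the authors with featureCounts 1.4.6-p4 on the UCSC mm10 annotation, per the file headers. Alignment with Bowtie2 2.2.6 and TopHat2 2.0.13, DESeq2 1.10.1 and another featureCounts version, 1.5.0, are named in the submitters' processing notes. The header's command set no option for strand or for reads with several alignments, and it calls the second line MKU where the columns say MK2. Coordinates are those of the deposited table.

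The counts went into edgeR 4.0.16 under R 4.3.3 (filterByExpr with a minimum count of 10, TMM scaling, quasi-likelihood F test, two-sided, Benjamini-Hochberg adjustment over 12479 genes), and glmTreat was run at a log2 threshold of 1. The procedure was tested on simulated data. Standard errors were taken from the fold change and its F statistic. Library pairs and culture differences used log2 CPM with a prior count of 2. Alternatives were 3 other scalings, no low-count filter, DESeq2 1.42.0, each library left out in turn and the replicate number as a block. Read sharing was measured as the share of 50-base words of the longest coding transcript found in GENCODE M21 transcripts of other genes.

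The members and lists were chosen with earlier results of these data known. All 32 members are named, and of each other list up to 4 called genes with the largest change at 1 CPM or more, except 1 gene that is not reported here. Median chi-square values per gene between replicates were 4.28 in MK2 and 2.87 in MK1, above counting noise. Such spread can also arise between libraries of the same culture, so it does not show that the samples were independent. Each library counted as a sample.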

Additional observations from a re-analysis of the deposited data

How the results depend on the processing

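All 25 called members kept their direction under the 11 alternatives tried, and 16 of them were called under every one. Of the uncalled members, Ebp ran from -0.069 to 0.53 and Fads2 from -0.069 to 0.30 with 1 library left out, both negative without MK2 replicate 2. Fdps and Sqle passed as lower with no low-count filter, with DESeq2 and with the replicate block. The count of sterol genes higher in MK2, 0 as reported, was 1 (Dhcr7) with no low-count filter, with DESeq2 and with the replicate block, and ran from 0 to 2 with 1 library left out. The count of fatty acid genes higher, 1 as reported (Acaca), was 0 with library size alone, upper quartile scaling and the replicate block, and ran from 0 to 1 with 1 library left out, while the count lower ran from 5 to 8. Over all genes, leaving out 1 library gave 1527 to 3222 higher and 2189 to 3625 lower, and beyond 2-fold 196 to 431 higher and 789 to 1300 lower. With the replicate block 18 sterol genes and 8 fatty acid genes fell, where 3175 of all 12479 genes tested did. The count of sterol genes lower, 16 as reported, was smaller without MK1 replicate 1, MK1 replicate 2 or MK2 replicate 1. It was larger without MK2 replicate 2. In these fits the sterol median ran from -0.73 (without MK2 replicate 1) to -1.10 (without MK2 replicate 2). Replicate differences of MK2 and MK1 correlated at -0.15 over 12479 genes. That value does not settle whether the shared numbers pair the cultures. Nor, with 2 cultures a line, does the higher level of all 21 sterol genes in replicate 2 of both lines. With the pairing crossed, an alternative added after seeing the data, the counts were 18 sterol genes lower and 1 higher, and 8 fatty acid genes lower and 1 higher. Over all genes the crossed pairing gave 3886 lower and 3568 higher. The causes of these shifts were not tested. With 2 cultures a line, an exact permutation test could not go below p = 0.333, and counts below 3 in a library, 0.0991 to 0.119 CPM, could not be told from 0.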
